A study of Homo sapiens with 6 samples.

Results

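TGFβ signaling was followed through 10 genes: the ligands TGFB1, TGFB2 and TGFB3, the receptors TGFBR1, TGFBR2 and TGFBR3, the endothelial receptor components ENG and ACVRL1, and the signal carriers SMAD2 and SMAD3. They were taken by gene symbol, and each was found on a single row among the 58364 rows of the expression table. The rows thus followed from the symbols, while the 10 genes themselves were chosen with earlier results of these data known.

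The ligands are secreted in a latent form and bind a complex of a type II receptor (TGFBR2) and a type I receptor (TGFBR1), which phosphorylates SMAD2 and SMAD3. TGFBR3 (betaglycan) and ENG (endoglin) are related co-receptors that present ligand to the signaling receptors, and TGFB2 depends on TGFBR3 more than the other ligands do. ENG and ACVRL1 (ALK1) are typical of endothelial cells, where they also carry BMP9 and BMP10 signals, and TGFβ signaling is known as a regulator of the endothelial-to-hematopoietic transition (EHT), in which endothelial cells give rise to blood cells.

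The study asked how loss of MSX2, a homeobox transcription factor, affects hematopoietic differentiation of H1, a human embryonic stem cell (hESC) line. RNA-seq was performed at day 8 of differentiation on 2 libraries of wild type (WT) H1 cells and 4 libraries of MSX2-/- H1 cells, which are 2 replicates of each of 2 knockout clones, 1# and 2#. The clones were derived by CRISPR/Cas9 with guides to the second exon of MSX2 and grown from single cells after lentiviral delivery and puromycin selection, so each is 1 clone with its own history. All groups were differentiated in the same culture system, whose protocol lists activin A and BMP4 followed by VEGF and bFGF, and whether WT cells went through the lentiviral steps is not given in the sources used here. The labels name a CD31+ selection for the MSX2-/- libraries, and the study's results describe CD31+ cells for WT as well. The replicate numbers also carry a set letter in the labels, F for replicate 1 and S for replicate 2 in every group.

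MSX2 itself was listed at 3.64 and 1.44 FPKM (fragments scaled to transcript length and to all mapped fragments) in WT and at 5.62 to 31.8 FPKM in the libraries labelled MSX2_KO. The transcript level was thus higher, not lower, under the knockout label, and it does not check the labels. The summed FPKM was 555286 to 617120 per library, and 13366 to 14222 genes reached 1 FPKM. The table gives no read counts. Among genes under 0.1 FPKM the values moved in steps, which placed the depth of the other 5 libraries at 1.02 to 1.18 times that of WT replicate 1.

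Cell type markers were read from lists. All 10 endothelial markers were present, led by EGFL7 and KDR, and the endothelial marker PECAM1 (CD31) was at 258 and 218 FPKM in WT and at 186 to 230 FPKM in MSX2-/- libraries. The summed endothelial level was 3225 to 3879 FPKM in WT and 2048 to 3217 FPKM in MSX2-/-. All 10 had a lower mean log2 level in MSX2-/-, with 3 passing the test (CDH5, TIE1 and CLDN5) and 7 passing it with the replicate number in the fit. Of all genes tested, 0.321% were called lower, and 3.74% with the replicate number in the fit. Hematopoietic markers, led by HBE1 and ITGA2B, summed to 117 to 144 FPKM in WT and 281 to 405 FPKM in MSX2-/-, and PTPRC (CD45) was under 1 FPKM in every library. Mesenchymal and smooth muscle markers, led by COL1A1 and COL1A2, summed to 280 to 340 FPKM in WT and 508 to 584 FPKM in MSX2-/-, with DCN and MYH11 under 1 FPKM in every library. COL1A1 (mean 41.8 FPKM in WT and 198 FPKM in MSX2-/-) and TAGLN (24.4 and 91.0 FPKM) held most of that difference. Of the 10 tested genes of this list 8 had a higher mean log2 level in MSX2-/- and 2 a lower one. The lower ones were COL1A2 (log2 difference -0.07) and COL3A1 (-0.54), and neither passed. Macrophage markers, led by MRC1 and CD68, summed to 30.8 to 51.6 FPKM in WT and 21.3 to 24.3 FPKM in MSX2-/-, with CD163 and FCGR3A under 1 FPKM throughout. MRC1 alone set that direction, since the other 7 summed to 10.2 to 10.4 FPKM in WT and 10.7 to 14.8 FPKM in MSX2-/-, and CD68 had a mean of 3.91 FPKM in WT and 6.06 FPKM in MSX2-/-. The sums of megakaryocyte markers, led by GP1BA and F2RL3, overlapped between the groups (9.43 to 22.9 against 15.03 to 28.2 FPKM), with PPBP, GP6 and TUBB1 under 1 FPKM throughout. Pluripotency markers (63.9 to 74.3 FPKM in WT against 82.8 to 101 FPKM, led by LIN28A and DPPA4, with NANOG and SOX2 under 1 FPKM throughout) had a higher sum in MSX2-/-. LIN28A and DPPA4 held most of that sum. POU5F1 overlapped between the groups (4.36 and 0.869 FPKM in WT, 0.911 to 5.33 FPKM in MSX2-/-), and SOX2 was at 0 FPKM in every MSX2-/- library. Endoderm markers, led by SOX17 and ALB, summed to 205 to 311 FPKM in WT and 330 to 546 FPKM in MSX2-/-. SOX17, which endothelial cells also express, held the highest mean of that list, and without it the groups overlapped (39.7 and 70.5 FPKM in WT, 12.2 to 225 FPKM in MSX2-/-). The part of these shifts in the values that follow was not tested. In bulk libraries, fewer cells of a type and less RNA per cell cannot be told apart.

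The stretches just upstream of the transcription starts of TGFBR3, ENG and TGFB1 are printed because these are the members that passed a test between MSX2-/- and WT, and that of TGFB2 because it holds SMAD box letters and its gene did not pass. Each is the 250 bases before a start, 5′ to 3′ on the strand of the gene, from RefSeq on GRCh38.p14, and capitals mark the SMAD box core CAGAC, searched on both strands.
TGFBR3, chr1:91886152-91886401, minus strand: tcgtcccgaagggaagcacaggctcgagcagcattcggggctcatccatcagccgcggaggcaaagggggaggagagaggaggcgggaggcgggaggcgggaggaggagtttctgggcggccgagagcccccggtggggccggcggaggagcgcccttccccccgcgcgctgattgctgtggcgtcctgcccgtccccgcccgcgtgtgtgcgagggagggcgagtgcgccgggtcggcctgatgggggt
ENG, chr9:127854659-127854908, minus strand: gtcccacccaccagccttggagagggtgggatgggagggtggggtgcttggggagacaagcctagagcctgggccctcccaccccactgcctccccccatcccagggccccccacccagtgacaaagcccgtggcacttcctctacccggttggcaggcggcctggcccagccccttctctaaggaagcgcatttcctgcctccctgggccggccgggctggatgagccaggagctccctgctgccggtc
TGFB1, chr19:41353923-41354172, minus strand: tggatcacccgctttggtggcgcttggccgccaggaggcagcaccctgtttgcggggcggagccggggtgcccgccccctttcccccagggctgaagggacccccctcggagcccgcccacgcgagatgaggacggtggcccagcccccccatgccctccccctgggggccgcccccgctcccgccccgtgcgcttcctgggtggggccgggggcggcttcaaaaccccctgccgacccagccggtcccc
TGFB2, chr1:218345086-218345335, plus strand: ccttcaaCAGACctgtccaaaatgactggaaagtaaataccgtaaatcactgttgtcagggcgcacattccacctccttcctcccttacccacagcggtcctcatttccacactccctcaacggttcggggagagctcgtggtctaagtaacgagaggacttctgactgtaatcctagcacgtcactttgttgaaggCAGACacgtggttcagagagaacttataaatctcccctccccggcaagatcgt
RefSeq windows were matched for 9 of the 10 members, all but ACVRL1, and gave 23 windows, since several members have more than 1 start. The SMAD box core was found in 8 of the 23 windows, against 38.003% of 35116 windows over all genes. By this count of windows it was not more frequent here than elsewhere. The windows are not independent, since TGFBR1 alone has 8, some of which overlap, and 4 of these hold the core. The core stood 243 and 53 bases before the start of TGFB2 and in none of the windows of TGFBR3, ENG and TGFB1. The homeobox core TAATTG, also searched on both strands, was found in 0 of the 23 windows, against 6.70% of all windows. These counts describe the letters of the windows only.

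TGFB1 was by far the most abundant ligand (FPKM by library are plotted for all 10 members). It was at 342 and 517 FPKM in WT, at 496 and 578 FPKM in clone 1#, and at 469 and 640 FPKM in clone 2#. WT replicate 2 lay within the range of the MSX2-/- libraries, so the groups overlapped, while each MSX2-/- library was above the WT library of its own replicate number. TGFB1 made up 98.1% to 99.8% of the summed FPKM of the 3 ligands. The difference MSX2-/- minus WT was 0.37 on the log2(FPKM + 1) scale (SE 0.20, limma adjusted p = 0.568), and with the replicate number in the fit it had an SE of 0.08 and an adjusted p of 0.0445. By the latter fit TGFB1 rose in MSX2-/- cells, with a mean of 546 ± 78.0 FPKM (SD, n = 4) against 429 ± 124 FPKM (SD, n = 2), and that call was lost in 5 of the 6 fits that left out 1 library (highest adjusted p 0.218) and without the filter on low values (0.152). Without the replicate number in the fit, leaving out WT replicate 1 gave a log2 difference of 0.07, and leaving out WT replicate 2 gave 0.66. TGFB1 lies on chromosome 19 from 41301587 to 41353911 on the minus strand (GRCh38), where 4 annotated genes of the other strand overlap its span, and whether reads were counted by strand is not given in the sources used here.

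**Figure D1:**
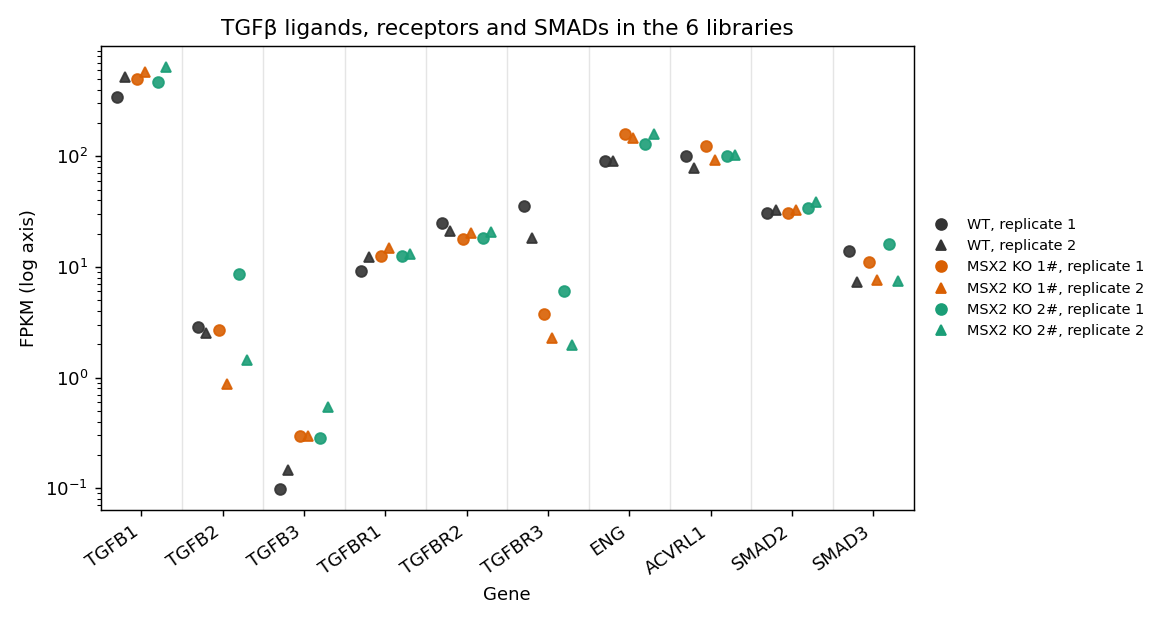
FPKM on a log axis for each of the 10 genes, with 1 point per library (circles, replicate 1; triangles, replicate 2; black, WT; orange, clone 1#; green, clone 2#). TGFB1 lies at the top with 342 to 640 FPKM, TGFB3 at the bottom with under 1 FPKM, and TGFBR3 is the gene whose WT points, 35.4 and 18.1 FPKM, stand far above the MSX2-/- points, at most 6.01 FPKM.

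TGFB2 was a low ligand. It was at 2.85 and 2.55 FPKM in WT, at 2.72 and 0.879 FPKM in clone 1#, and at 8.61 and 1.43 FPKM in clone 2#. The MSX2-/- libraries thus lay on both sides of WT, with the highest and the lowest value of the series in replicate 1 of 2# and replicate 2 of 1#. The log2 difference was -0.05 with a 95% interval from -1.53 to 1.43 (limma adjusted p = 0.992), so these libraries set no narrow limit on a change of TGFB2.

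TGFB3 was under 1 FPKM in every library, at 0.0984 and 0.145 FPKM in WT and at 0.298, 0.296, 0.286 and 0.541 FPKM in MSX2-/- (1# replicates 1 and 2, then 2# replicates 1 and 2). All 4 MSX2-/- values were above both WT values. Its mean was under 0.5 FPKM, so it was not among the 15895 genes tested. Without that filter its log2 difference was 0.27 (SE 0.09, limma adjusted p = 0.459).

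Of the signaling receptors, TGFBR2, the type II receptor, was at 24.98 and 21.0 FPKM in WT, at 17.8 and 20.4 FPKM in 1#, and at 18.1 and 20.6 FPKM in 2#. All 4 MSX2-/- values were below both WT values, but those of replicate 2 were only just below. TGFBR1, the type I receptor ALK5, was at 9.11 and 12.2 FPKM in WT, at 12.6 and 14.9 FPKM in 1#, and at 12.6 and 13.1 FPKM in 2#, all 4 above both WT values. Neither passed the test. The log2 difference of TGFBR2 was -0.24 (95% interval -0.58 to 0.09, limma adjusted p = 0.604, and 0.229 with the replicate number in the fit). That of TGFBR1 was 0.30 (95% interval -0.09 to 0.70, limma adjusted p = 0.570, and 0.130 with the replicate number in the fit).

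TGFBR3 was the member with the clearest difference. This co-receptor was at 35.4 and 18.1 FPKM in WT, at 3.72 and 2.29 FPKM in clone 1#, and at 6.01 and 1.96 FPKM in clone 2#. Both WT values were above all 4 MSX2-/- values, and the groups did not overlap. WT had a mean of 26.7 ± 12.2 FPKM (SD, n = 2) and MSX2-/- one of 3.50 ± 1.84 FPKM (SD, n = 4), a ratio of 7.65 between the means. The fall was 2.64 on the log2(FPKM + 1) scale, a scale that understates changes of low genes, with a log2 difference of -2.64 (SE 0.42, limma adjusted p = 0.0426). With the replicate number in the fit, the SE was 0.17 and the adjusted p 0.0015. The call was lost in 9 of 14 alternatives (limma adjusted p up to 0.468), and all 9 were fits that lacked the replicate number. The 14 also include fits that had it, with and without the filter on low values, and these kept the call. With the replicate number the call also held when any 1 MSX2-/- library was dropped (limma adjusted p 0.0046 to 0.0094). In that fit the log2 difference was -2.66 with WT replicate 1 as the only WT library, and -2.61 with WT replicate 2. Counted from the lowest log2 difference, TGFBR3 was number 10 of the 15895 genes. On GRCh38 the gene spans 91680343 to 91906335 of chromosome 1 (minus strand), the start whose window is printed above lies inside this span, and RN7SL653P is annotated within it on the same strand.

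ENG, the related co-receptor of endothelial cells, went the other way. It was at 90.9 and 91.0 FPKM in WT, at 159 and 147 FPKM in 1#, and at 129 and 160 FPKM in 2#. The WT libraries were nearly equal and all 4 MSX2-/- libraries were above them, with a mean of 149 ± 14.2 FPKM (SD, n = 4), 1.64 times that of WT. The log2 difference was 0.70 (SE 0.12, 95% interval 0.42 to 0.98). It missed the threshold without the replicate number (limma adjusted p = 0.0524) and passed with it (SE 0.10, adjusted p 0.0098), a call that was lost without WT replicate 1 (adjusted p 0.0685) and without WT replicate 2 (adjusted p 0.0845), and also without the filter on low values (adjusted p 0.0613). The ratio of ENG to TGFBR3 was 2.57 and 5.02 in WT and 21.5 to 81.6 in MSX2-/-. On GRCh38, ENG spans 127815012 to 127854756 of chromosome 9, also on the minus strand, and there AL162586.1 overlaps it on the other strand.

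ACVRL1, the endothelial type I receptor, was at 99.7 and 79.0 FPKM in WT, at 124 and 92.6 FPKM in 1#, and at 100.3 and 103 FPKM in 2#. The groups overlapped. The log2 difference was 0.23 (95% interval -0.14 to 0.60, limma adjusted p = 0.685, and 0.219 with the replicate number in the fit). ACVRL1 was more abundant than TGFBR1, the other type I receptor, by 6.20 to 10.9 times in FPKM, with WT at 10.9 and 6.46 and MSX2-/- at 6.20 to 9.81.

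SMAD2 and SMAD3 carry the signal to the nucleus. SMAD2 was at 30.6 and 32.7 FPKM in WT, at 30.5 and 33.0 FPKM in 1#, and at 34.3 and 38.5 FPKM in 2#. SMAD3 was at 14.0 and 7.36 FPKM in WT, at 11.1 and 7.58 FPKM in 1#, and at 16.1 and 7.44 FPKM in 2#. For SMAD3 the 3 libraries of replicate 1 were all above the 3 of replicate 2, and genotype made no such split. The log2 difference between the genotypes was 0.10 for SMAD2 (95% interval -0.22 to 0.41, limma adjusted p = 0.887) and -0.02 for SMAD3 (95% interval -0.89 to 0.86, limma adjusted p = 0.996). With the replicate number in the fit the intervals were -0.13 to 0.33 for SMAD2 and -0.38 to 0.35 for SMAD3. SMAD2 exceeded SMAD3 in FPKM by 2.13 to 5.17 times.

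Over all members, 9 of 10 were tested. Without the replicate number 0 passed as higher and 1 (TGFBR3) as lower in MSX2-/-, where 0.963% of the 15895 genes were called higher and 0.321% lower. With the replicate number in the fit 2 passed as higher (TGFB1 and ENG) and 1 as lower (TGFBR3), where 6.11% of genes were called higher and 3.74% lower. Of the 9 tested, all 4 MSX2-/- libraries were above both WT libraries for 2 members (TGFBR1 and ENG) and below both for 2 (TGFBR2 and TGFBR3), and over all genes tested these shares were 12.1% and 9.19%. The median log2 difference was 0.10 over the 9 members and 0.01 over all genes tested. For a single value, 4 libraries against 2 allow 15 arrangements, so an exact permutation test cannot give a p under 0.0667. The study's methods speak in general of independent experiments, with a number that differs from the 2 replicates of these libraries, so whether the replicates were separate differentiations is not settled, and p-values measure the spread between these libraries, which may be technical.

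**Figure D2:**
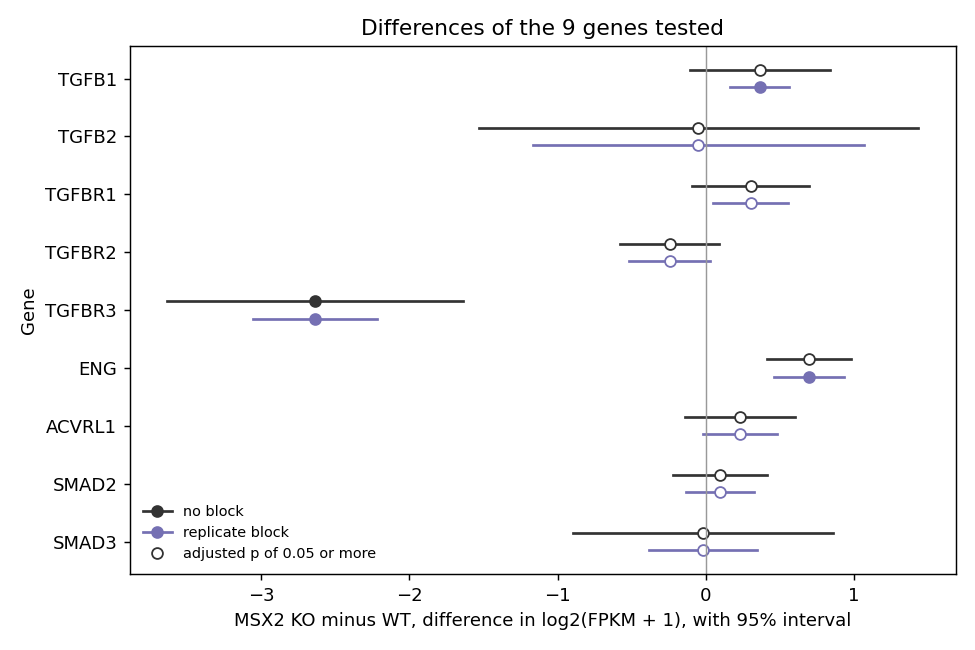
Difference MSX2-/- minus WT in log2(FPKM + 1) for the 9 genes tested, with 95% intervals from limma, without (black) and with (purple) the replicate number in the fit; filled points have an adjusted p under 0.05. TGFBR3 lies at -2.64 and passes in both fits, ENG at 0.70 and TGFB1 at 0.37 pass with the replicate number in the fit, and TGFB2 has the widest interval without it, from -1.53 to 1.43.

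Within each replicate number, every MSX2-/- library was set against its same-numbered WT library, which gave 4 comparisons a gene that share 2 WT libraries. TGFBR3 was lower in 4 of 4, with WT 9.49 and 7.92 times as high as 1# and 5.88 and 9.23 times as high as 2# in replicates 1 and 2. ENG was higher in 4 of 4, at 1.74 and 1.62 times WT in 1# and 1.42 and 1.76 times WT in 2#. TGFB1 was higher in 4 of 4 as well, at 1.45 and 1.12 times WT in 1# and 1.37 and 1.24 times WT in 2#. TGFB3, TGFBR1 and ACVRL1 were also higher in 4 of 4, and TGFBR2 was lower in 4 of 4. Some of these were near ties, with ACVRL1 at 1.006 times WT in 2# replicate 1. TGFBR2 was at 0.974 and 0.980 times WT in replicate 2 of 1# and 2#. The share of all genes with 4 of 4 in a direction was not computed, so these counts have no background. SMAD2 and SMAD3 were higher in 3 of 4, and TGFB2 in 1 of 4, in which it was 3.02 times the WT level.

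**Figure D3:**
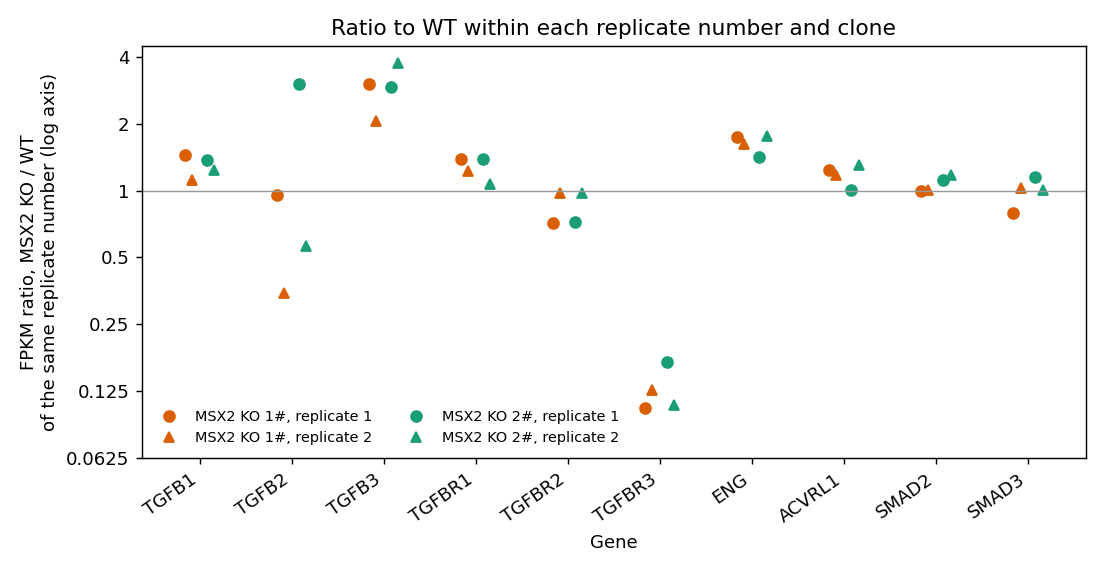
Ratio of FPKM in each MSX2-/- library to its same-numbered WT library, on a log axis (orange, clone 1#; green, clone 2#; circles, replicate 1; triangles, replicate 2). The TGFBR3 points lie between 0.105 and 0.170, those of ENG between 1.42 and 1.76, and those of TGFB2 spread from 0.345 to 3.02.

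The clones were compared with each other directly. No member passed the limma test between 2# and 1#. Of 15895 genes 0 were called (0.0%), with 225 at an unadjusted p under 0.05. With the replicate number in the fit 0 were called as well, with 530 at an unadjusted p under 0.05. The difference 2# minus 1# was 0.21 for TGFBR3 (95% interval -1.086 to 1.505) and -0.09 for ENG (95% interval -0.47 to 0.29). It was 0.87 for TGFB2 (95% interval -0.84 to 2.58), the member with the most room for a difference between the clones. Against WT, with the replicate number in the fit, TGFBR3 fell in each clone, with log2 differences of -2.74 in 1# (limma adjusted p = 0.0102) and -2.53 in 2# (limma adjusted p = 0.01001). In the same fit ENG rose in 1# by 0.74 (limma adjusted p = 0.0398), and in 2# its difference of 0.66 lay at the threshold without passing it (limma adjusted p = 0.05003). TGFB1 passed in neither clone taken singly (0.35 and 0.38, limma adjusted p = 0.151 and 0.124). Both comparisons share the WT libraries.

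Several members also differed between the replicate numbers, at shares near those of all genes tested. In the fit with genotype, TGFB1 was higher in replicate 2 (set S) than in replicate 1 (set F) by 0.42 (SE 0.08, limma adjusted p = 0.0099). TGFBR3 was lower in set S, with a log2 difference of -0.90 (SE 0.16, limma adjusted p = 0.0095), and so was SMAD3, at -0.79 (SE 0.14, limma adjusted p = 0.0094). These are 1 member higher and 2 lower of 9, where 15.6% of all genes were called higher and 18.9% lower. The set difference of TGFB2 was -1.03, also in the direction of a lower set S, and did not pass (95% interval -2.08 to 0.02, limma adjusted p = 0.114). ENG and TGFBR2 were nearly level between the sets, at 0.07 and 0.04. The genotype difference was then compared between the sets, and no member passed (3 genes, 0.0189% of all tested, were called). For TGFBR3 the genotype difference changed by 0.05 from set F to set S (95% interval -0.96 to 1.05).

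Because endothelial markers were lower in MSX2-/- libraries, each member was also expressed relative to the mean log2(FPKM + 1) of the 10 endothelial markers. That mean was 7.79 and 7.98 in WT and 6.98 to 7.38 in MSX2-/-, so by construction the step adds the same 0.69 to the log2 difference MSX2-/- minus WT of every gene. On this scale ENG was at -1.27 and -1.46 in WT and at -0.17 to 0.34 in MSX2-/-, a difference of 1.38. TGFBR3 was at -2.60 and -3.73 in WT and at -5.79 to -4.27 in MSX2-/-, a difference of -1.95. For TGFBR3 the fall was larger than the added shift, and its 4 MSX2-/- values stayed below both WT values. The markers fell unequally, with log2 differences from -0.19 for PECAM1 to -2.28 for CLDN5, so the shift depends on the markers taken. The part of lower endothelial content in the fall of TGFBR3 was not tested. The difference of ENG on this scale holds the shift on top of its own and is no separate evidence for it. TGFBR2 turned from -0.24 to 0.44, as any gene with a fall smaller than the shift would, so its direction depends on the scale.

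**Figure D4:**
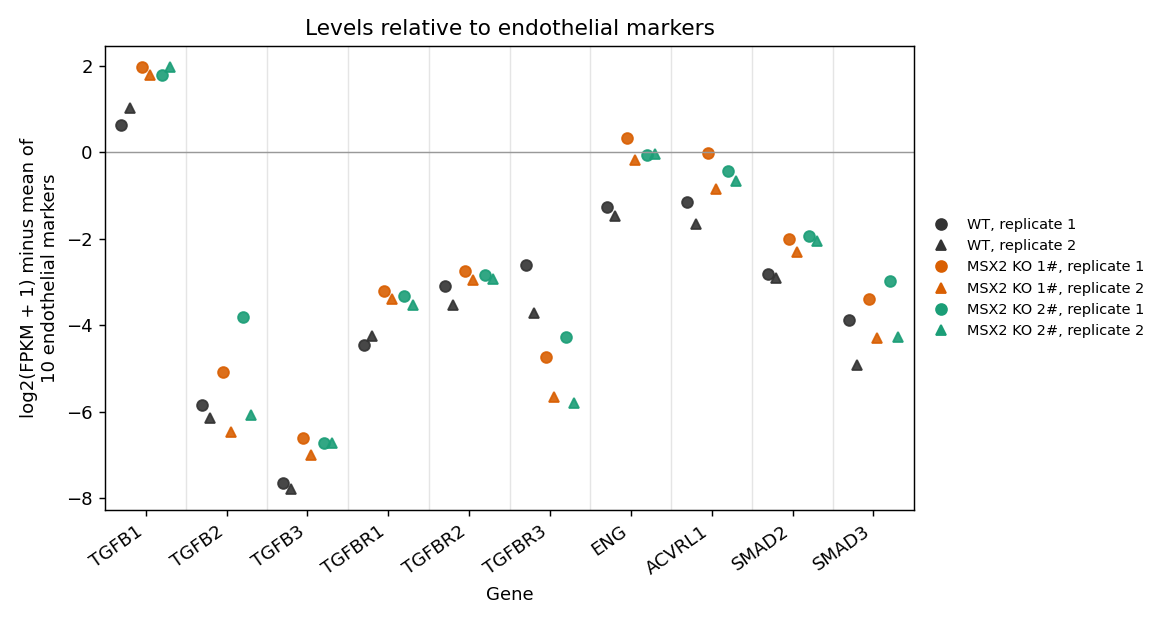
Level of each gene as log2(FPKM + 1) minus the mean of 10 endothelial markers in the same library (black, WT; orange, clone 1#; green, clone 2#; circles, replicate 1; triangles, replicate 2). TGFBR3 is the gene whose 4 MSX2-/- points lie below both WT points, while 7 genes have all 4 above, on a scale that adds 0.69 to the MSX2-/- minus WT difference of every gene.

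Other genes of the pathway were read from 5 lists with 91 genes, 80 of which were tested. Of these, 6 (7.5%) passed as higher and 0 as lower in MSX2-/-, and with the replicate number in the fit 23 (28.75%) passed as higher and 4 (5.0%) as lower. Over all genes tested these shares were 0.963% and 0.321%, and 6.11% and 3.74% with the replicate number in the fit, so the share called lower was near that of all genes. The median log2 difference over the 80 genes was 0.27. The 5 lists were written with earlier results of these data known. Their shares beside those of all genes are thus a description and no separate evidence on the pathway. The called genes of the first fit were FOXH1, BAMBI, COL1A1, TAGLN, CNN1 and PDGFB.

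**Figure D5:**
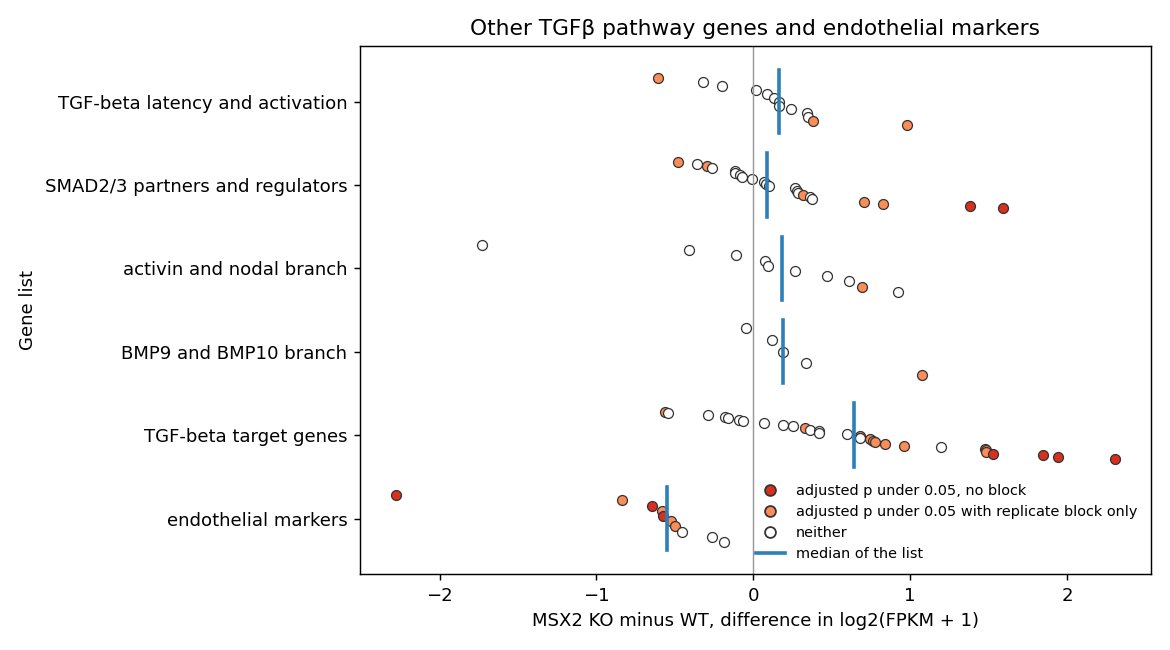
Difference MSX2-/- minus WT in log2(FPKM + 1) for the tested genes of 5 TGFβ pathway lists and of the endothelial markers, 1 point per gene, with the list median as a blue line (red, adjusted p under 0.05 without the replicate number in the fit; orange, only with it; white, neither). The median is 0.64 for the target genes and -0.55 for the endothelial markers, and lies between 0.09 and 0.19 for the other lists.

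The list of TGFβ latency and activation holds the binding proteins, proteases and integrins that store and release the ligands. Of its 13 tested genes 0 passed without the replicate number, and 2 passed as higher and 1 as lower with it, where 6.11% and 3.74% of all genes tested did so. LTBP2, a latent TGFβ binding protein family member, had 13.9 ± 1.14 FPKM in MSX2-/- (SD, n = 4) against 6.61 ± 1.60 FPKM in WT (SD, n = 2), a log2 difference of 0.98 (limma adjusted p = 0.0104 with the replicate number in the fit). HTRA1, a secreted protease, had a log2 difference of 0.38 (limma adjusted p = 0.0387 in the same fit). NRROS, which anchors latent TGFβ on myeloid cells, had 23.3 ± 3.06 FPKM against 36.1 ± 6.76 FPKM in WT, a log2 difference of -0.61 (limma adjusted p = 0.0149 in the same fit). Of the macrophage markers MRC1 had lower values in MSX2-/- beside it, while the sum of the others did not. ITGB6 and ITGB8, whose integrins activate the ligands, had means under 0.5 FPKM and were not tested.

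Among 22 SMAD2/3 partners and pathway regulators, 2 passed as higher without the replicate number, and 5 passed as higher and 2 as lower with it. Of all genes tested, 0.963% were called higher and 0.321% lower, and with the replicate number 6.11% and 3.74%. BAMBI, a decoy receptor that lacks a kinase domain, was at 40.6 ± 11.4 FPKM in WT (SD, n = 2) and 106 ± 10.4 FPKM in MSX2-/- (SD, n = 4), a log2 difference of 1.38 (SE 0.18, limma adjusted p = 0.0292). FOXH1, a DNA-binding partner of SMAD2/3 complexes, rose from 1.24 ± 0.11 FPKM to 5.84 ± 1.35 FPKM, a log2 difference of 1.59 (SE 0.23, limma adjusted p = 0.0328). With the replicate number in the fit the inhibitory SMAD7 also rose (log2 difference 0.83, limma adjusted p = 0.0238), as did the ubiquitin ligase SMURF2 (0.70, limma adjusted p = 0.0442) and STRAP, a binding partner of SMAD7 (0.32, limma adjusted p = 0.0493). In that fit DAB2, an adaptor protein, fell (-0.48, limma adjusted p = 0.0241), and FKBP1A, which binds type I receptors, fell too (-0.30, limma adjusted p = 0.0163).

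Of the activin and nodal branch, which uses the same SMAD2 and SMAD3, 10 of 17 genes were tested, and GDF3, a ligand, passed only with the replicate number in the fit (log2 difference 0.69, limma adjusted p = 0.0353). In that fit 6.11% of all genes tested were called higher and 3.74% lower. Of the branch of BMP9 and BMP10, ligands of ACVRL1 and ENG, 5 of 6 were tested. BMP10 had 2.79 ± 0.58 FPKM in MSX2-/- (SD, n = 4) against 0.78 ± 0.13 FPKM in WT (SD, n = 2) and passed only with the replicate number in the fit (log2 difference 1.08, limma adjusted p = 0.0193). GDF2, the gene of BMP9, was not tested because its mean was under 0.5 FPKM.

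Of the 30 TGFβ target genes, 4 passed as higher and 0 as lower, and 14 and 1 did so with the replicate number in the fit, with a median log2 difference of 0.64, where 0.963% and 0.321% of all genes tested were called higher and lower, and 6.11% and 3.74% with the replicate number. COL1A1, a collagen, had 198 ± 5.52 FPKM in MSX2-/- (SD, n = 4) against 41.8 ± 19.9 FPKM in WT (SD, n = 2), a log2 difference of 2.30 (SE 0.25, limma adjusted p = 0.0152). The actin-binding proteins TAGLN and CNN1 had log2 differences of 1.94 and 1.53 (limma adjusted p = 0.0300 and 0.0152). PDGFB, a growth factor made by endothelial cells and megakaryocytes, had 74.1 ± 9.96 FPKM against 20.1 ± 5.53 FPKM, a log2 difference of 1.85 (limma adjusted p = 0.0152). The matrix protein TGFBI and the matricellular CCN1 both had a log2 difference of 1.48 and passed only with the replicate number in the fit (limma adjusted p = 0.0184 and 0.0015). ZEB1, a transcriptional repressor, fell in that fit (-0.56, limma adjusted p = 0.0482). COL1A1, TAGLN and CNN1 are also on the list of mesenchymal and smooth muscle markers, whose sum was higher in MSX2-/- mostly through COL1A1 and TAGLN themselves. COL1A2, COL3A1 and ACTA2, also on both lists, had log2 differences of -0.07, -0.54 and 0.33 and did not pass without the replicate number. The part of such cells in these values was not tested. Like the other lists, that of the target genes was written with earlier results of these data known.

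The genes most like each member across the 6 libraries were taken by Pearson r of log2(FPKM + 1) among the 9545 genes whose mean reached 5 FPKM, as a description, since all genes share the same 6 libraries and their genotype and set differences. For TGFBR3 they were RGS3, LRIG3 and TJP1 (r 0.997, 0.997 and 0.996), and for ENG they were MRPS34, NPM3 and EPHA2 (0.997, 0.995 and 0.993). TGFB1 was most like C1QBP, FRMD8 and SLC39A14 (0.998, 0.997 and 0.995), TGFBR1 most like MOSPD1, BAG4 and JUNB (0.988, 0.978 and 0.976), and TGFBR2 most like MCCC2, CTTNBP2NL and LIME1 (0.999, 0.989 and 0.975). For ACVRL1 they were TNFRSF10A, CDK5 and SERPINB6 (0.973, 0.972 and 0.971), for SMAD2 NIPSNAP2, PRKAR2A and SLAIN2 (0.990, 0.971 and 0.968), and for SMAD3 ANXA4, UBR4 and SETD5 (0.997, 0.996 and 0.995). An r above 0.95 was reached by 185 genes for TGFB1, 177 for SMAD3, 138 for TGFBR3 and 117 for ENG. It was reached by 29 for TGFBR1, 23 for TGFBR2, 14 for ACVRL1 and 7 for SMAD2. The named genes are thus the top of longer lists.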

How the data were processed

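Values were deposited as FPKM, fragment counts scaled to transcript length and mapped fragments, with 1 column per library, for 58364 rows with values, and replicates were not pooled. 1 further row held no values and was left out. The series' design text names BWA with ANOVA as well as TopHat and Cufflinks, and the submitters' processing notes list BWA, Bowtie, RSEM and hg19 without roles. The annotation, versions and use of strand are not given in the sources used here. Column names match the titles for WT but only the group for the clones, which the titles number 7 and 10. The culture text of the labels also mentions HAND1 overexpression, which no sample of the series carries in its own labels.

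The 15895 genes whose mean reached 0.5 FPKM were tested on log2(FPKM + 1) with limma 3.58.1 in R 4.3.3 (empirical Bayes with a trend, Benjamini-Hochberg adjustment over all genes tested, threshold 0.05), as 4 MSX2-/- against 2 WT libraries, without a block and with a block of the replicate number. The deposited FPKM are not counts, so no count test was run. The fit was also run on simulated data, whose outcome is not given here. The simulated noise was independent between libraries, so that run cannot test whether replicates of 1 clone are independent. The replicate numbers carry a shared set letter in the labels, and the deviations of same-numbered libraries correlated (r 0.51 for WT with 1#, 0.54 for WT with 2#, 0.64 for 1# with 2#). Replicate numbers separated on the first principal component (44.1% of the variance), genotypes on the second (27.7%). No 2 libraries held identical values.

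Members, gene lists and tests were chosen with earlier results of these data known. All members were named, and of the other pathway lists every gene called without the block and, with the block only, up to 3 genes with the highest and 3 with the lowest log2 difference. A withheld result is not reported here. Of the marker lists, those under 1 FPKM in every library and the 2 highest means were named. CDH5, TIE1, CLDN5, PECAM1, COL3A1, TAGLN, ACTA2 and POU5F1, and the marker sums without MRC1 or SOX17, were added after their values were seen. 2 listed genes were matched by an older symbol. Gene positions are from GENCODE 29 (GRCh38), which holds 97.0% of the 56595 symbols of the table, and promoter windows from RefSeq (GRCh38.p14). The relative depth was read from genes under 0.1 FPKM in both libraries compared.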

Additional observations from a re-analysis of the deposited data

Results flagged for a closer look

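TGFB3 had 1 library apart among the 4 MSX2-/- libraries. Replicate 2 of 2# was at 0.541 FPKM and the other 3 were at 0.286 to 0.298 FPKM. On the log2(FPKM + 1) scale its gap to the nearest value was 0.9497 of the range, above the 95% critical value of Dixon's test. About 1 in 20 such groups is picked out by chance, and 10 genes were examined.

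For TGFBR2 the difference between the replicate sets differed by genotype. From set F to set S it went from 24.98 to 21.0 FPKM in WT, while it went from 17.8 to 20.4 FPKM in 1# and from 18.1 to 20.6 FPKM in 2#. The interaction term was 0.42 on the log2(FPKM + 1) scale (95% interval 0.10 to 0.75, limma adjusted p = 0.388), so it did not pass over all genes.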

How the results depend on the processing

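For genes called in MSX2-/- against WT, 153 were higher and 51 lower. The counts were 971 and 595 with the replicate block, 65 higher without the filter on low values, 309 and 198 with the block and no filter (chosen after seeing the data), 4 and 2 with 3 groups, 0 and 0 with clone 1# alone and 0 and 1 with clone 2# alone. They were 14 to 59 and 5 to 28 when 1 library was left out, and 438 to 604 and 256 to 398 when 1 was left out under the block. Members called higher went from 0 to 2 with the block and 1 (ENG) with a pseudocount of 0.1, to 0 with the block and no filter, where TGFB1 and ENG no longer passed (adjusted p 0.152 and 0.0613), and under the block to between 0 and 2 with 1 library left out. Members called lower (TGFBR3) went from 1 to 0 without the filter, with 3 groups and with either clone alone, and were 0 to 1 with 1 library left out. The other pathway genes called higher were 6, against 23 with the block, 8 with the block and no filter, 2 without the filter, 0 with 3 groups and with either clone alone, 0 to 5 with 1 library left out and 14 to 17 with 1 left out under the block, and those called lower were 0, against 4 with the block, 0 with the block and no filter and 0 to 2 with 1 left out under the block.

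The sign of TGFB2 was not fixed, with 0.39 for clone 2# alone, -0.52 to 0.26 with 1 library left out and -0.73 to 0.64 under the block. Nor was that of SMAD3, with 0.10 for clone 2# alone, -0.44 to 0.40 with 1 left out and -0.12 to 0.10 under the block. Between sets the sign of TGFBR2 (-0.0064 to 0.1818) and ENG (-0.0255 to 0.1419) turned with 1 library left out. TGFBR3, ENG, TGFB1, TGFBR1, TGFBR2, ACVRL1 and SMAD2 kept their direction between genotypes in all 14 alternatives and, under the block, all 6 leave-outs, but not their size. Without WT replicate 1 and without WT replicate 2 the log2 difference was 0.07 and 0.66 for TGFB1, 0.11 and 0.50 for TGFBR1, -0.12 and -0.36 for TGFBR2, 0.40 and 0.06 for ACVRL1 and 0.05 and 0.14 for SMAD2, and under the block it was -0.03 and -0.45 for TGFBR2. The cause of these shifts was not tested. No member stood on several rows, so summing rows was not run. FPKM carry no counts, so no interval for counting error is given, and with 2 WT libraries a lone WT library is assumed to vary like the others.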
